A study of Homo sapiens with 12 samples.

Results

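Glutathione S-transferases are enzymes that couple the tripeptide glutathione to reactive electrophiles, such as the lipid aldehydes that form when H2O2 attacks membranes. The genes described are 10 human members of the family, taken by gene name from a table of 58735 genes. They cover the cytosolic pi (GSTP1), mu (GSTM2, GSTM3, GSTM4), alpha (GSTA4) and omega (GSTO1) classes, the mitochondrial and peroxisomal kappa class (GSTK1) and the microsomal membrane enzymes (MGST1, MGST2, MGST3). The choice rested on measured values, since GSTM3 was known to be far higher in one cell line than in the other. The differences between the lines are therefore given as a description, without a test, and the responses to H2O2 are tested.

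RNA was sequenced from 2 immortalized human lines, the skin keratinocytes HaCaT and the gingival keratinocytes TIGK. Both lines were grown in DermaLife K Keratinocyte Complete Medium. They were left untreated (TIGK control and HaCaT control) or exposed to 5 mM H2O2 for 3 h (TIGK H2O2 and HaCaT H2O2), with 3 libraries in each of the 4 groups. In the treatment labels the last digit of the formula changes among treated replicates, whereas the treatment protocol and the study's methods name H2O2 for all of them. Each tissue is represented by a single line, so differences between lines and differences between gingiva and skin cannot be told apart. Nothing in the labels says that the replicates were separate cultures, so p-values measure the spread between these samples, which may be technical. Library totals lay between 30426401 and 49034244 counts. All 12 keratinocyte markers examined were expressed in every group, with KRT5 at no fewer than 452963 reads in any library. In these bulk samples, fewer cells of a type and less RNA per cell cannot be told apart.

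Each class handles other substrates, and the membrane enzymes partly overlap with eicosanoid metabolism. GSTP1 is the main transferase of keratinocytes and of many other epithelia. GSTA4 prefers hydroxyalkenals from lipid peroxidation, GSTO1 has thioltransferase and dehydroascorbate reductase activity, and MGST2 can form leukotriene C4. Several genes of the family are known targets of the transcription factor NRF2, which binds the antioxidant response element.

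Promoter sequence from RefSeq (GRCh38.p14) was found for 9 of the 10 members, from 250 bases before to 50 bases after each start. MGST2 had no entry. The 250 bases before the start are shown for the pair of members that differed most between the lines (GSTM3 and MGST1) and for the pair whose rise after H2O2 in HaCaT held in every alternative (GSTP1 and GSTO1). Capitals mark matches on either strand to the antioxidant response element core TGACNNNGC or to the AP-1 site TGANTCA. These letter patterns can overlap.
GSTM3, chr1:109741039-109741288, minus strand: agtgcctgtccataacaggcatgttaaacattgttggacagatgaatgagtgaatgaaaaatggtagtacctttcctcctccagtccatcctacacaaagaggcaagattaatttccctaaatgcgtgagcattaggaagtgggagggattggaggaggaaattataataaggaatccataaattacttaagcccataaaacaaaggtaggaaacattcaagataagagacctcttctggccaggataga
MGST1, chr12:16347395-16347644, plus strand: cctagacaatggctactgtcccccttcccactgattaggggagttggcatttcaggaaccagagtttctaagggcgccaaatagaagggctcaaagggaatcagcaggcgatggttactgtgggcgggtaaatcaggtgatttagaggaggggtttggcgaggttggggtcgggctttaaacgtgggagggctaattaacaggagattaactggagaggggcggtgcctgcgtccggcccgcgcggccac
GSTP1, chr11:67583562-67583811, plus strand: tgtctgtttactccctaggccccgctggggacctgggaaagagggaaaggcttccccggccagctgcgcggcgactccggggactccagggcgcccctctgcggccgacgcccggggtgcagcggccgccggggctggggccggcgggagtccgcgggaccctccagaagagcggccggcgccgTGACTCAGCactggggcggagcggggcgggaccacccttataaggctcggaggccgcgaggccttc
GSTO1, chr10:104254642-104254891, plus strand: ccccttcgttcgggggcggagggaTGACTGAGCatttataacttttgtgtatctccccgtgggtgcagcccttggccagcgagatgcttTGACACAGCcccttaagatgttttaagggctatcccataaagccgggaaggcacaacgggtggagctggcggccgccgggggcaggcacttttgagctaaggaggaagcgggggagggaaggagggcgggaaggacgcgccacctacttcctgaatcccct

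Over the full windows of 300 bases, the GSTP1 promoter held 36 CpG dinucleotides and the GSTM3 promoter held 1. The median over 35116 RefSeq windows was 14, and 11% of the windows held no more CpG than that of GSTM3. GSTP1 had 1 element core at 66 bases before the start, and an AP-1 match lay within the same letters. GSTO1 had 2 cores, at 226 and 161 bases before the start. GSTA4 had 1 core at 9 bases before the start. For MGST1 3 windows were listed, and 1 of them, not shown, held a core 31 bases after its start. No match lay in the windows of GSTM2, GSTM3, GSTM4, GSTK1 and MGST3. Of all windows, 13.3% held the element core and 7.71% the AP-1 site. A match of letters is not a shown binding site.

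To compare members with each other, counts were divided by the gene length in the deposited table and by the effective library size (RPKM). GSTP1 was the most abundant member in all 4 groups, at 481 ± 31.1 RPKM in TIGK control and 474 ± 23.2 RPKM in HaCaT control (SD, n = 3). Among 16618 genes tested it ranked 44 in TIGK control and 49 in HaCaT control. By the deposited lengths GSTO1 followed at 45.9 ± 6.62 RPKM in TIGK control and 48.0 ± 2.96 RPKM in HaCaT control. These levels of GSTP1 and GSTO1 differed between the untreated lines by less than the spread of their libraries.

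Below GSTP1 and, by the deposited lengths, GSTO1, the order of the members depended on the line. In TIGK control MGST1 came next at 17.7 ± 2.36 RPKM, ahead of GSTM3 at 9.30 ± 1.46 and GSTK1 at 8.16 ± 1.01 RPKM (SD, n = 3). The intervals of 1 SD of GSTM3 and GSTK1 overlapped. This order turned with the length used. With the length of the canonical GENCODE transcripts, an alternative chosen after seeing the data, MGST1 at 142 ± 19.0 RPKM was above GSTO1 at 95.5 ± 13.8 RPKM in TIGK control, and GSTM3 at 10.7 ± 1.68 RPKM was below GSTK1, MGST3 and MGST2. GSTP1 stayed first in both untreated lines. The levels that follow use the deposited lengths. GSTA4 was at 5.40 ± 0.849, MGST2 at 2.94 ± 0.562, MGST3 at 2.42 ± 0.272 and GSTM4 at 0.581 ± 0.0281 RPKM in TIGK control. In HaCaT control GSTK1 was at 9.62 ± 0.504 RPKM, followed by MGST3 at 4.02 ± 0.215 RPKM. MGST2 at 2.01 ± 0.285, GSTA4 at 1.74 ± 0.335 and GSTM4 at 1.52 ± 0.156 RPKM lay close together in HaCaT control, and GSTM3 was last of the members with clear signal at 0.324 ± 0.0834 RPKM.

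**Figure D1:**
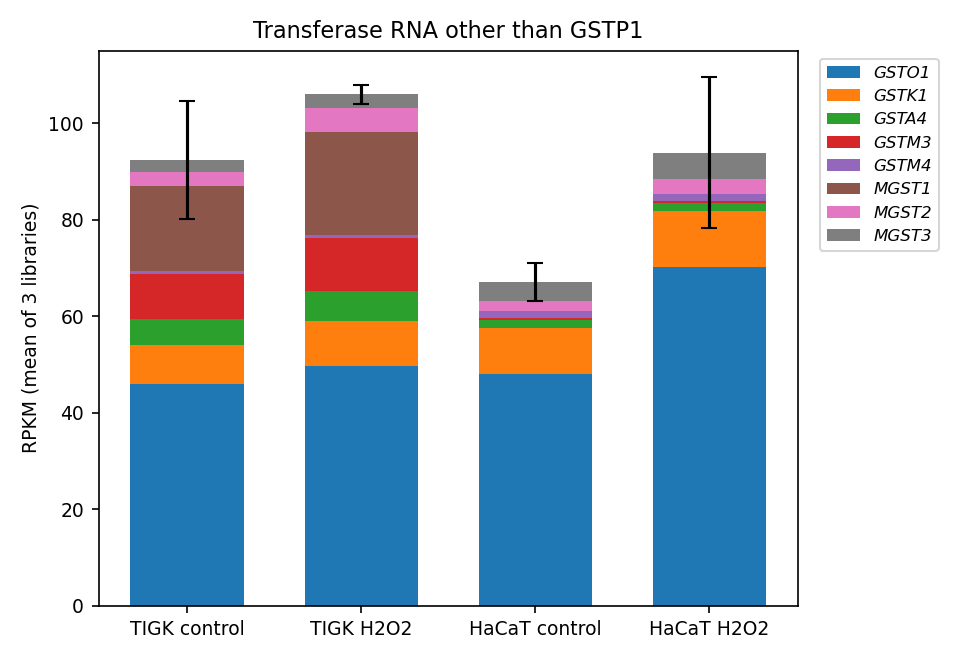
Summed RPKM of the members other than GSTP1 (y axis) in the 4 groups (x axis), stacked by gene as means of 3 libraries, with the SD of the sum as a black bar. The segments of MGST1, GSTM3 and GSTA4 are wide in TIGK and narrow or absent in HaCaT, and the GSTO1 segment is the tallest in HaCaT H2O2 at 70.2 RPKM. GSTM2 is left out of the stack, with at most 6 reads in a library.

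GSTP1 made up 83.9% ± 0.997 of the summed RPKM of the 10 members in TIGK control and 84.2% ± 0.562 in TIGK H2O2 (SD, n = 3). Its share was 87.6% ± 0.152 in HaCaT control and 88.0% ± 0.498 in HaCaT H2O2. The sum over the members without GSTP1 was 92.4 ± 12.1 RPKM in TIGK control and 67.2 ± 3.93 RPKM in HaCaT control. It was 106 ± 1.93 RPKM in TIGK H2O2 and 93.9 ± 15.6 RPKM in HaCaT H2O2. The microsomal class held 4.01% ± 0.267 of the sum in TIGK control against 1.11% ± 0.0385 in HaCaT control, and the mu class 1.72% ± 0.135 against 0.342% ± 0.0258. The share of MGST1 depended on the length used. The deposited length of 7440 bases gave 3.08% in TIGK control, and the canonical GENCODE transcript of 925 bases gave 9.07%.

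Among the mu class enzymes, GSTM3 was the member with the widest gap between the lines that could be given as a fold. The gene lies on chromosome 1 from 109733932 to 109741038 (GRCh38, minus strand). Normalized counts, scaled to the mean effective library size, were 1692, 1799 and 1320 in TIGK control and 71.1, 54.1 and 42.5 in HaCaT control. After H2O2 they were 1804, 1958 and 1918 in TIGK and 63.4, 81.6 and 51.2 in HaCaT. Every TIGK library was above every HaCaT library in both states. The ratio of the group means was 28.7-fold without treatment and 28.9-fold after H2O2, with log2 differences of 4.81 (SE 0.161) and 4.86 (SE 0.161). By RPKM, GSTM3 ranked 4450 of 16618 genes in TIGK control and 13526 in HaCaT control.

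The other mu class genes did not follow GSTM3. GSTM4 had 116, 120 and 127 normalized counts in TIGK control and 355, 307 and 292 in HaCaT control. After H2O2 it had 124, 133 and 120 in TIGK and 336, 353 and 314 in HaCaT. It was lower in every TIGK library than in every HaCaT library, with log2 differences of -1.39 (SE 0.134) and -1.41 (SE 0.133). GSTM2 did not pass the filter of a mean of 10 counts, with 0 reads in the 6 TIGK libraries and 0 to 6 in the 6 HaCaT libraries, 18 in all. GSTM1 and GSTM5, which are not among the members, had 0 reads in every library.

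These 5 mu class genes lie within 119348 bases of chromosome 1, from 109656081 to 109775428. GSTM3 and GSTM4, the expressed pair of that stretch, thus differed between the lines in opposite directions. The annotated spans of GSTM2 and GSTM4 overlap on the same strand, and that of GSTM3 overlaps GSTM5 on the other strand. Of the stretches of 150 bases in the canonical GSTM2 transcript, 67.6% were found in no other gene and the rest were shared with GSTM1, so a low GSTM2 count is uncertain. All such stretches of the other 9 members were unique to them.

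**Figure D2:**
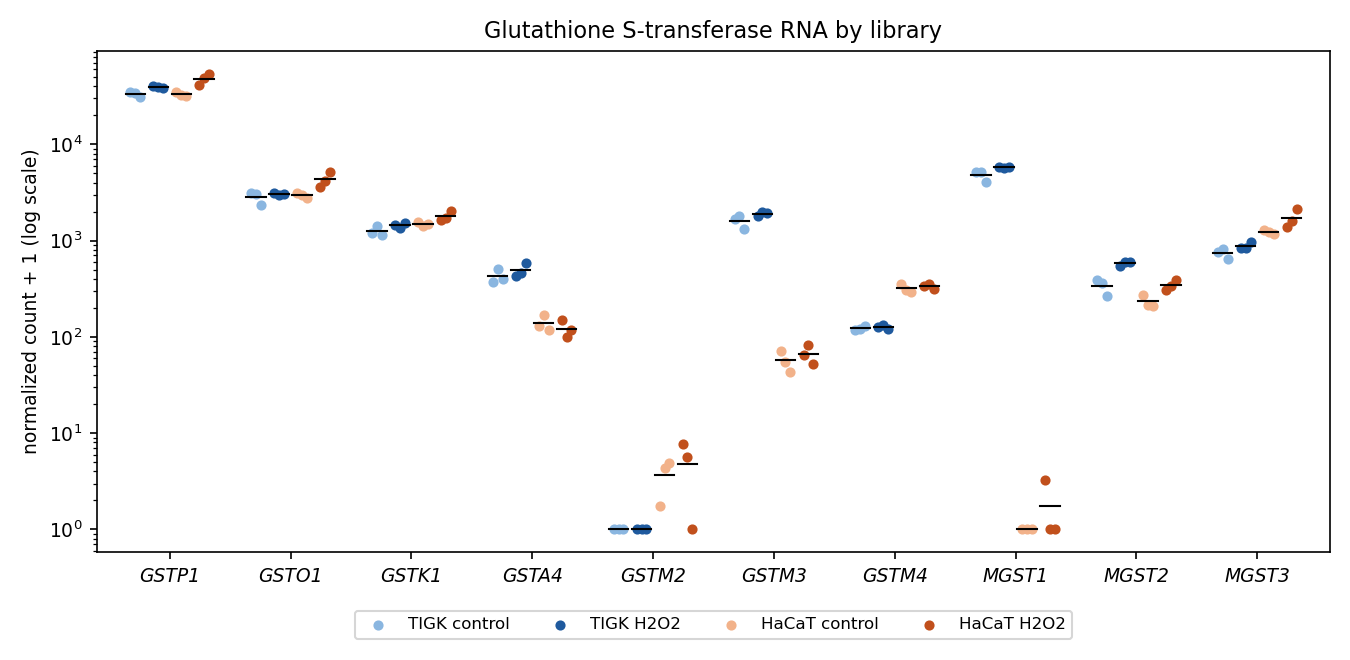
Normalized count plus 1 on a log scale (y axis) of the 10 members (x axis), with 1 point per library in the colour of its group and a black line at the mean of 3 libraries. The TIGK points of GSTM3, GSTA4 and MGST1 lie above all HaCaT points, and those of GSTM4 and MGST3 below them. MGST1 in HaCaT and GSTM2 in TIGK lie at or near the lower edge.

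Among the microsomal enzymes, MGST1 was detected in TIGK and at most at trace level in HaCaT. It had 5108, 5187 and 4046 normalized counts in TIGK control and 5811, 5641 and 5741 in TIGK H2O2. In HaCaT it had 0 reads in all 3 control libraries, and 2, 0 and 0 reads in the H2O2 libraries. Set against a floor of 3 counts per HaCaT library, MGST1 was at least 1674-fold higher in TIGK without treatment and at least 1713-fold higher after H2O2. These bounds cover counting error only. MGST1 passed the filter through the TIGK libraries alone, and no fold is given for its response in HaCaT. Genes that overlap MGST1 on the other strand, SUPT16HP1 and LMO3, had at most 34 reads in a library.

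MGST3 went the other way and MGST2 lay between them. MGST3 had 763, 808 and 647 normalized counts in TIGK control and 1296, 1214 and 1166 in HaCaT control, a log2 difference of -0.73 (SE 0.123) with no overlap of libraries. After H2O2 the difference was -0.94 (SE 0.121). MGST2 had 387, 365 and 266 normalized counts in TIGK control and 270, 215 and 210 in HaCaT control. The lowest TIGK library of MGST2 lay within the HaCaT range, and the log2 difference was 0.54 (SE 0.146). After H2O2 the MGST2 libraries no longer overlapped, with a log2 difference of 0.75 (SE 0.14). H3F3AP6 and MAML3, which overlap MGST2 on the other strand, had 75 to 144 and 14 to 79 reads. Whether the counting respected strand is not stated.

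GSTA4, the alpha class member, was higher in TIGK. It had 374, 502 and 402 normalized counts in TIGK control and 130, 167 and 116 in HaCaT control. After H2O2 it had 429, 458 and 586 in TIGK and 148, 97.9 and 116 in HaCaT. No TIGK library overlapped a HaCaT library, and the log2 differences were 1.64 (SE 0.176) and 2.02 (SE 0.18). GSTA1, GSTA2, GSTA3 and GSTA5, the other alpha class genes, had at most 6 reads in any library.

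GSTP1 and GSTO1 were close to equal in the untreated lines, and GSTK1, of the kappa class, was slightly lower in TIGK. The log2 differences, TIGK minus HaCaT, were 0.020 (SE 0.0779) for GSTP1, -0.064 (SE 0.107) for GSTO1 and -0.24 (SE 0.0923) for GSTK1, and the libraries of each overlapped. After H2O2 all 3 were lower in every TIGK library than in every HaCaT library, by -0.29 (SE 0.0779), -0.50 (SE 0.107) and -0.31 (SE 0.0916). For GSTP1 the gap was narrow, since its highest TIGK library was at 40471 and its lowest HaCaT library at 40862 normalized counts.

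**Figure D3:**
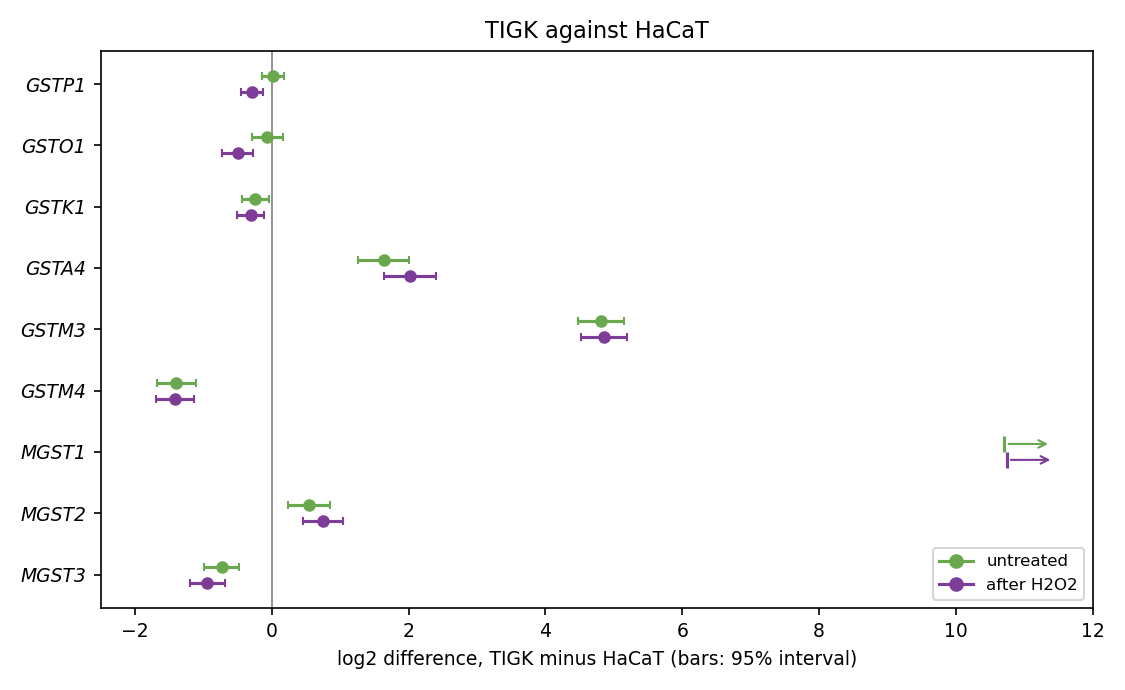
Log2 difference of TIGK minus HaCaT (x axis) for 9 members (y axis), untreated in green and after H2O2 in purple, with bars for 95% intervals. MGST1 is drawn as a lower bound with an arrow, at 10.71 untreated and 10.74 after H2O2. GSTM3 and GSTA4 lie to the right of 0 and GSTM4 and MGST3 to the left in both states.

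By class, the direction of GSTM3 was shared by GSTA4 and MGST1 in both states and by MGST2, whose libraries overlapped without treatment, and not by the other mu class members. Of the 9 members that passed the filter, 3 were higher and 2 lower in every untreated TIGK library, and 4 overlapped. Among all genes tested, 37.1% were higher and 36.2% lower in every untreated TIGK library. After H2O2 4 members were higher, 5 were lower and 0 overlapped, where 35.6% of all genes were higher and 35.8% lower. Since the members were chosen from these values, nothing is read from these counts. Fibroblast markers also differed between the lines, with a summed level of 56.0 to 77.5 CPM (counts scaled to library size) in TIGK and 11.4 to 16.6 in HaCaT, and 4 of the 10 markers passed the filter. COL1A2 was at 0 reads in every library. FBN1, COL1A1 and DCN were the most abundant of them in TIGK control, with 1758, 601 and 197 normalized counts against 203, 359 and 4.91 in HaCaT control. Summed melanocyte markers were 11.7 to 19.5 in TIGK and 4.36 to 6.34 in HaCaT, and leukocyte and endothelial markers 2.71 to 4.26 and 0.559 to 2.13 CPM. The part of such transcripts in the differences of the members was not tested.

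The response to H2O2 was tested in each line with edgeR's quasi-likelihood test, with p-values adjusted by Benjamini and Hochberg over 16618 genes and a limit of 0.01. In TIGK 1 of the 9 members tested rose and 0 fell. Among all genes tested, 10.2% rose and 12.9% fell in TIGK. The member was MGST2, with 543, 597 and 595 normalized counts after H2O2 against 387, 365 and 266 in TIGK control. All treated libraries were above all control libraries, and the log2 fold change was 0.77 (SE 0.14, edgeR adjusted p = 0.000301). Without TIGK control replicate 3, the lowest of these libraries, the log2 fold change was 0.62 (edgeR adjusted p = 0.00204).

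The other members in TIGK had smaller values that did not pass the limit. GSTP1 had 34875, 34320 and 30893 normalized counts in TIGK control and 40471, 38872 and 38026 after H2O2, a log2 fold change of 0.23 (SE 0.0779, edgeR adjusted p = 0.0277). MGST1 had a log2 fold change of 0.26 (SE 0.0855, edgeR adjusted p = 0.0249), and its libraries did not overlap either. Without TIGK control replicate 3 GSTP1 was at 0.18 and MGST1 at 0.15 (edgeR adjusted p = 0.125 for each). Both passed the limit when TIGK was fitted alone. Without HaCaT H2O2 replicate 1 both passed as well (edgeR adjusted p = 0.00241 for GSTP1 and 0.0083 for MGST1), and without HaCaT H2O2 replicate 3 GSTP1 passed (edgeR adjusted p = 0.00505). GSTM3 had a log2 fold change of 0.24 (95% interval -0.0063 to 0.49), GSTK1 of 0.21, GSTA4 of 0.21, MGST3 of 0.26, GSTO1 of 0.11 and GSTM4 of 0.054. Control replicate 3 of TIGK was the lowest library of its group for 7 of the 9 members. The median log2 fold change of the 9 members past the filter was 0.23 beside 0.0084 over all genes tested. Summed melanocyte markers were 11.7 to 12.4 CPM in TIGK control and 15.9 to 19.5 after H2O2, and summed fibroblast markers 64.9 to 77.5 and 56.0 to 59.3. The melanocyte sum was mostly MITF, at 390 normalized counts in TIGK control and 580 after H2O2, with PMEL at 42.7 and 52.2. Of the fibroblast markers FBN1 was at 1758 and 1153, whereas COL1A1 was at 601 and 653 and DCN at 197 and 236. The part of such transcripts in these responses was not tested.

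In HaCaT, 4 of the 8 members with a fold rose after H2O2 and 0 fell, where 18.9% of all genes tested rose and 15.2% fell. MGST1, with at most 2 reads in a HaCaT library, could not be called there and is left out of this count. GSTP1 had 34587, 32701 and 31387 normalized counts in HaCaT control and 40862, 48614 and 54176 after H2O2. All treated libraries were above all control libraries, and the log2 fold change was 0.54 (SE 0.0781, edgeR adjusted p = 2.12e-05). GSTO1 had 3099, 2989 and 2744 normalized counts in HaCaT control and 3597, 4160 and 5172 after H2O2, a log2 fold change of 0.55 (SE 0.107, edgeR adjusted p = 0.000392). The libraries of GSTO1 did not overlap. These were the abundant pi and omega class enzymes, which were near equal in the untreated lines.

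MGST2 and MGST3 were the other members that rose in HaCaT. MGST2 had 308, 335 and 387 normalized counts after H2O2 against 270, 215 and 210 in HaCaT control, a log2 fold change of 0.56 (SE 0.146, edgeR adjusted p = 0.0041). MGST3 had 1379, 1600 and 2104 normalized counts after H2O2 against 1296, 1214 and 1166, a log2 fold change of 0.47 (SE 0.119, edgeR adjusted p = 0.00361). Neither overlapped between the groups. HaCaT H2O2 replicate 3 was the highest library of its group for 5 of the 8 members detected there, and HaCaT control replicate 3 the lowest for 7 of 8. Without HaCaT H2O2 replicate 3, MGST2 had a log2 fold change of 0.46 (edgeR adjusted p = 0.0218) and MGST3 of 0.28 (edgeR adjusted p = 0.0279), so neither passed. Both calls were also lost without HaCaT control replicate 2 (edgeR adjusted p = 0.0205 and 0.0146), without HaCaT control replicate 3 (0.024 and 0.0199), and without TIGK H2O2 replicate 2 (0.0108 and 0.0101). That of MGST2 was lost without TIGK H2O2 replicate 3 (0.0109), and that of MGST3 when HaCaT was fitted alone (edgeR adjusted p = 0.0126). GSTP1 and GSTO1 kept their calls without HaCaT H2O2 replicate 3, at 0.44 (edgeR adjusted p = 3.02e-05) and 0.40 (edgeR adjusted p = 0.00135).

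**Figure D4:**
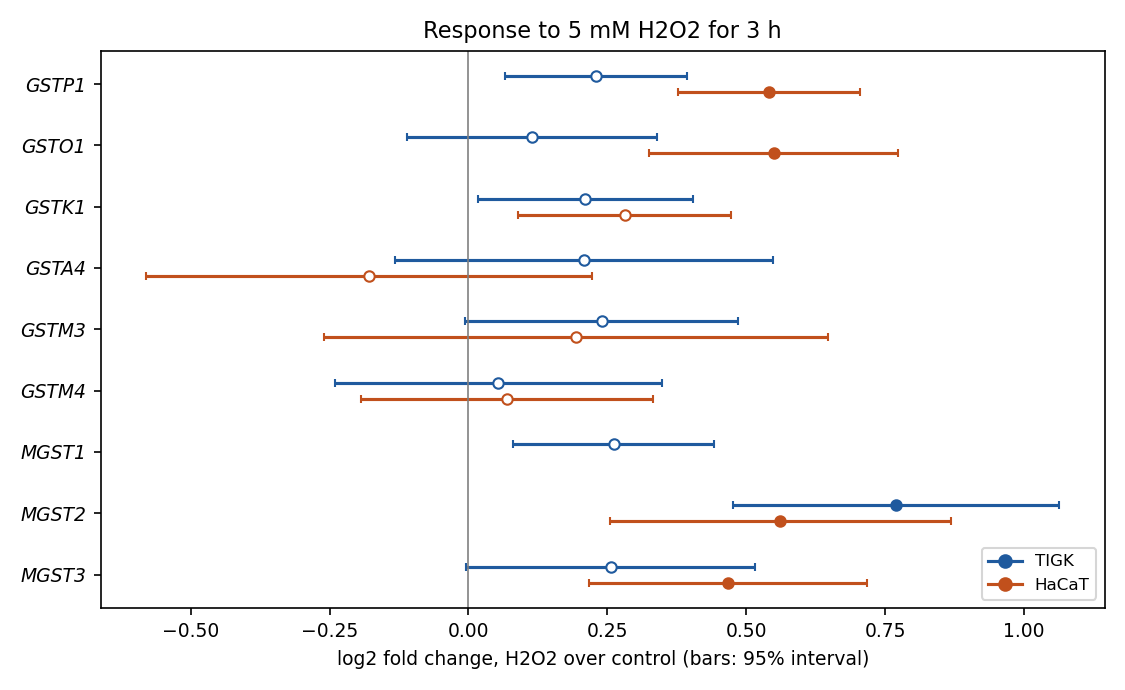
Log2 fold change of H2O2 over control (x axis) for 9 members (y axis) in TIGK (blue) and HaCaT (orange), with bars for 95% intervals and filled points for an adjusted p under 0.01. MGST2 is filled in both lines, GSTP1, GSTO1 and MGST3 in HaCaT. MGST1 has no value in HaCaT, where it had at most 2 reads.

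The remaining members did not pass in HaCaT. GSTK1 had a log2 fold change of 0.28 (SE 0.0915, edgeR adjusted p = 0.017), with no overlap of libraries. GSTM3, the member with the wide gap between lines, had 0.19 (95% interval -0.26 to 0.65), and GSTM4 had 0.070 (-0.19 to 0.33). GSTA4 was the only member with a negative value in either line, at -0.18 in HaCaT (95% interval -0.58 to 0.22). The values of GSTM3 and GSTA4 moved when 1 library was left out. That of GSTM3 was 0.0089 without HaCaT H2O2 replicate 2, 0.029 without HaCaT control replicate 3, 0.34 without HaCaT H2O2 replicate 3 and 0.43 without HaCaT control replicate 1. That of GSTA4 was -0.38 without HaCaT H2O2 replicate 1, -0.29 without HaCaT control replicate 3, -0.050 without HaCaT H2O2 replicate 2 and -0.027 without HaCaT control replicate 2. The median of the 8 members with a fold was 0.37 beside 0.038 over all genes tested. Summed melanocyte markers were 4.36 to 5.33 CPM in HaCaT control and 5.72 to 6.34 after H2O2, and summed fibroblast markers 14.1 to 16.6 and 11.4 to 16.2. Their part in the HaCaT responses was not tested.

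A direct test in the same model compared the responses of the lines, as TIGK minus HaCaT. Of the 8 members with a fold in both lines 0 passed the limit in either direction, beside 2.32% of all genes with a higher and 2.98% with a lower response in TIGK. GSTO1 and GSTP1 came closest to the limit, and neither passed it. GSTO1 had a difference of -0.44 (95% interval -0.75 to -0.12, edgeR adjusted p = 0.0681) and GSTP1 of -0.31 (-0.54 to -0.081, edgeR adjusted p = 0.0738). DESeq2 on all libraries called 0 members, and edgeR without a filter on low counts called GSTO1 (adjusted p = 0.00272). For MGST2, which rose in both lines, the difference was 0.21 (95% interval -0.22 to 0.63). For GSTM3 it was 0.046 (-0.47 to 0.56).

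Of 63 related genes on 4 lists, 62 were in the table and 46 were tested. They comprise other transferase genes, glutathione synthesis and supply, export and breakdown of conjugates, and NRF2 regulators and targets. GSTT1 was not analysed here. After H2O2 10 of the 46 rose and 6 fell in TIGK, where 10.2% of all genes tested rose and 12.9% fell. In HaCaT 11 rose and 7 fell, where 18.9% of all genes rose and 15.2% fell. Between the untreated lines 20 were higher and 15 lower in TIGK, where 30.8% and 29.1% of all genes tested passed. After H2O2 19 were higher and 15 lower, where 29.8% and 30.2% of all genes passed.

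Among the other transferase genes, 5 were tested, 10 were below the filter and 5 of these had 0 reads in every library. PTGES, the inducible prostaglandin E synthase of the microsomal superfamily, fell in both lines. Its mean fell from 4855 ± 97.4 to 3213 ± 199 normalized counts in TIGK and from 1559 ± 28.1 to 963 ± 50.4 in HaCaT (SD, n = 3), with log2 fold changes of -0.59 (edgeR adjusted p = 3.04e-07) and -0.69 (edgeR adjusted p = 8.42e-08). PTGES was also higher in untreated TIGK than in untreated HaCaT, by 1.64 on the log2 scale (edgeR adjusted p = 1.43e-14). GSTCD, a protein with a transferase-like domain, rose in TIGK by 0.69 (edgeR adjusted p = 2.46e-05) and had 0.23 in HaCaT (edgeR adjusted p = 0.0663). The difference of the GSTCD responses, TIGK minus HaCaT, was 0.46 and did not pass (edgeR adjusted p = 0.04). GSTT2B, of the theta class, was lower in untreated TIGK, at 39.7 ± 14.0 against 185 ± 31.3 normalized counts (log2 difference -2.22, edgeR adjusted p = 4.52e-08). GSTT2B has a near-identical copy, GSTT2, so its count is uncertain. GSTO2 and GSTZ1 did not pass in either response.

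Genes of glutathione synthesis and supply changed in both directions, with 2 higher and 3 lower of 15 in TIGK and 5 higher and 3 lower in HaCaT. The shares of all genes tested were 10.2% higher and 12.9% lower in TIGK, and 18.9% and 15.2% in HaCaT. GSR, which reduces oxidized glutathione, rose in TIGK by 0.36 (edgeR adjusted p = 0.000765) and in HaCaT by 0.40 (edgeR adjusted p = 0.000224). SLC7A11, the cystine transporter that feeds glutathione synthesis, fell in both lines, by 0.94 in TIGK (edgeR adjusted p = 4.3e-09) and by 0.61 in HaCaT (edgeR adjusted p = 2.1e-06) on the log2 scale. GCLM, the modifier subunit of the first synthetic enzyme, also fell, by 0.34 and 0.35 (edgeR adjusted p = 0.00358 and 0.00141). Between the untreated lines 9 of these genes were higher and 4 lower in TIGK, where 30.8% and 29.1% of all genes tested passed. CHAC1, which degrades glutathione, had 817 ± 73.4 normalized counts in TIGK control and 15.1 ± 8.17 in HaCaT control (log2 difference 5.67, edgeR adjusted p = 1.3e-14). SLC7A11 was higher in TIGK by 1.77 (edgeR adjusted p = 3.89e-14) and GCLM lower, by -0.79 (edgeR adjusted p = 4.96e-08).

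Export and breakdown of conjugates included 12 tested genes, of which 2 rose and 2 fell in TIGK and 1 rose and 3 fell in HaCaT. Of all genes tested, 10.2% rose and 12.9% fell in TIGK, and 18.9% rose and 15.2% fell in HaCaT. ABCC1, the main exporter of glutathione conjugates, fell by 0.31 in TIGK (edgeR adjusted p = 0.00305) and by 0.47 in HaCaT (edgeR adjusted p = 4.45e-05) on the log2 scale. In HaCaT ABCC2 and ABCC3, related exporters, fell by 0.89 and 0.35 (edgeR adjusted p = 9.87e-05 and 0.00137). In TIGK they had log2 fold changes of -0.57 and -0.14 that did not pass (edgeR adjusted p = 0.0225 and 0.322). The difference of responses did not pass for either (edgeR adjusted p = 0.428 and 0.319). Untreated TIGK had less ABCC3, at 286 against 3772 normalized counts (log2 difference -3.72, edgeR adjusted p = 4.99e-17). It had more GGT7, of the gamma-glutamyltransferase family, at 963 against 113 (log2 difference 3.08, edgeR adjusted p = 7.01e-14). On this list 4 genes were higher and 6 lower in untreated TIGK, where 30.8% and 29.1% of all genes tested passed.

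NRF2 regulators and targets had 5 genes higher and 0 lower of 14 in each line after H2O2. Over all genes tested, 10.2% rose and 12.9% fell in TIGK, and 18.9% rose and 15.2% fell in HaCaT. NFE2L2, which encodes NRF2, rose by 0.36 in TIGK (edgeR adjusted p = 2.37e-05) and by 0.26 in HaCaT (edgeR adjusted p = 0.000487). The small MAF gene MAFF rose from 1366 ± 183 to 3295 ± 221 normalized counts in TIGK and from 1434 ± 145 to 2589 ± 394 in HaCaT (SD, n = 3), with log2 fold changes of 1.27 (edgeR adjusted p = 3.96e-08) and 0.85 (edgeR adjusted p = 4.42e-06). KEAP1, the inhibitor of NRF2, rose by 0.26 and 0.48 (edgeR adjusted p = 0.000677 and 8.63e-07). All 5 genes that rose in TIGK were regulators (NFE2L2, KEAP1, MAFF, MAFK and BACH1). HMOX1, a classic target, had 0.22 in TIGK and -0.062 in HaCaT, and neither passed (edgeR adjusted p = 0.402 and 0.916).

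**Figure D5:**
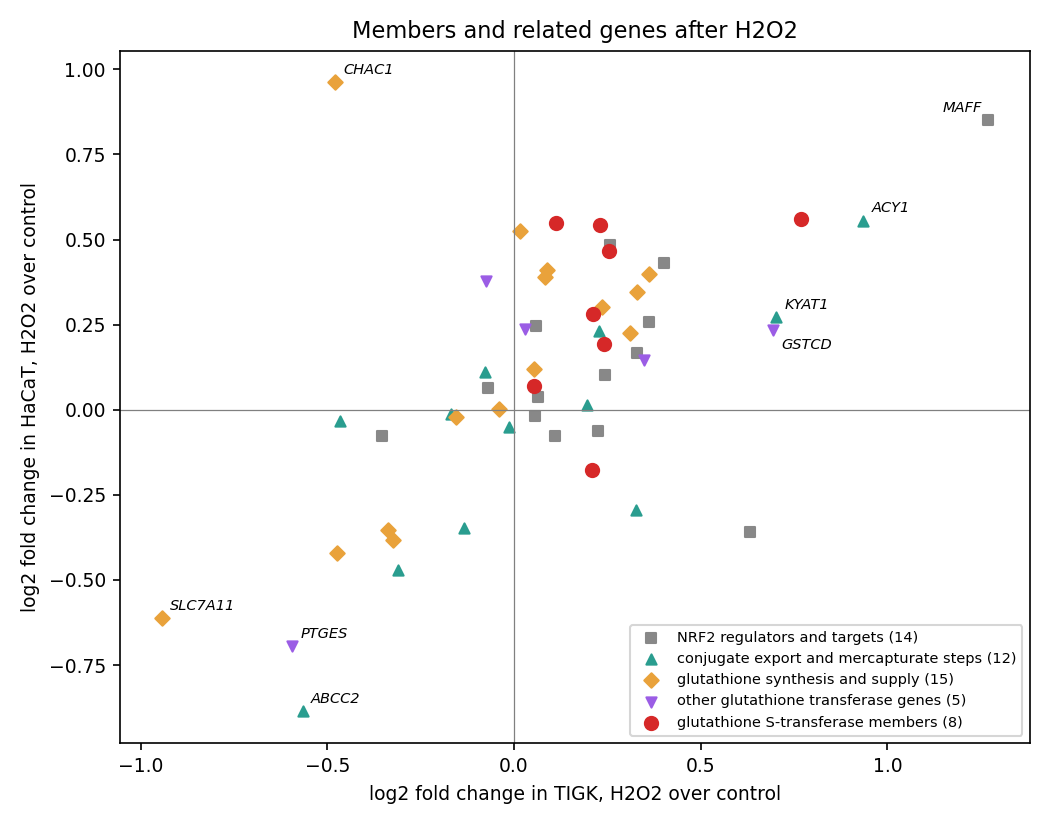
Log2 fold change after H2O2 in TIGK (x axis) against HaCaT (y axis) for 8 members (red circles) and the 46 tested genes of the 4 related lists (other symbols), with names for the related genes farthest from 0. Of the 8 members 7 lie in the upper right, and GSTA4 lies below 0 in HaCaT. SLC7A11, PTGES and ABCC2 lie at the lower left and MAFF at the upper right.

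Over the 12 libraries, the 5 genes whose centred log2 CPM lay closest to those of GSTM3, among 16609 genes compared, were GDF15, QRFPR, LINC01835, NUDT16P1 and RBM11. Their root mean square distance from GSTM3 was 0.25 for GDF15 and 0.287 for RBM11. For MGST1, the distance was 3.19. GDF15, a stress-induced cytokine, had 72.0 ± 9.86 normalized counts in TIGK control and 0.509 ± 0.882 in HaCaT control (SD, n = 3). In HaCaT control NUDT16P1 had 4.28 normalized counts, QRFPR 0, LINC01835 0 and RBM11 0.255. The log2 CPM used a prior count of 2, which narrows the gaps of genes near 0 counts. A short distance therefore does not mean a gap between the lines of the size seen for GSTM3. The gap between the lines sets most of this likeness, and these genes were chosen by it, so no test is given.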

How the data were processed

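The authors deposited raw counts of reads per gene for 12 polyA RNA libraries, without normalization, together with log2 fold changes and adjusted p-values of their own comparisons, which were not used. The study's methods name Hisat2 (2.0.5), StringTie (1.3.3b) and featureCounts (1.5.0-p3) on GRCh38, and the submitters' processing notes also list HISAT2 2.0.0. The annotation release, the use of strand and the handling of multi-mapped reads are not given in the sources used here. Libraries were grouped by line and treatment from their labels.

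The 16618 of 58735 genes whose raw counts averaged 10 or more were fitted in R 4.3.3 with edgeR 4.0.16 (TMM, quasi-likelihood, all 4 groups, common dispersion 0.0073), and called at a Benjamini-Hochberg adjusted p under 0.01. Normalized counts are counts over the effective library size times the mean of these sizes. TMM factors lay between 0.962 and 1.04. Replicate pairs differed by more than counting noise over all genes tested together (chi-square per degree of freedom 4.45 to 28.2 over 12 pairs). This pooled value weighs genes with many reads most, so it does not say what limits genes with few reads. Same-numbered control and treated samples did not deviate together (correlation -0.031 to 0.009), so the numbers were kept as names. Promoters were read from RefSeq and transcript lengths from GENCODE. The fit was tested on simulated counts with 200 genes changed in TIGK H2O2 alone. The simulated counts held no difference between the untreated lines, unlike these data.

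The members, the related gene lists and the tests were chosen with earlier results of these data known. The genes named are all 10 members, all other transferase genes, for the other 3 lists those that passed, averaged 100 or more normalized counts in either group and showed no overlap of libraries (at most 4 per list and direction), and the 5 genes most like GSTM3. The values of 1 related gene are not reported here. Alternatives were DESeq2 1.42.0, other scalings and filters, fits of the compared groups by themselves, a limit of 0.05, a replicate block, leaving out each library, and other gene lengths. Plots used matplotlib 3.10.9 under Python 3.11.15.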

Additional observations from a re-analysis of the deposited data

Results flagged for a closer look

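Of the 46 related genes tested, 3 had a response to H2O2 that differed between the lines, all 3 lower in TIGK. They passed the test of the difference itself, TIGK minus HaCaT, with edgeR adjusted p under 0.01. Among all genes tested, 2.32% passed with a higher and 2.98% with a lower response in TIGK. The 3 genes are given for their values, and nothing is read from their number. SLC1A5, a glutamine transporter, had a difference of -0.51 on the log2 scale (SE 0.0727, edgeR adjusted p = 0.00014). It rose in HaCaT from 5665 ± 119 to 8154 ± 416 normalized counts, and was at 7345 ± 214 and 7432 ± 170 in TIGK (SD, n = 3). CHAC1, which degrades glutathione, had a difference of -1.44 (SE 0.326, edgeR adjusted p = 0.00688), with values of -0.48 in TIGK and 0.96 in HaCaT that did not pass on their own (edgeR adjusted p = 0.0119 and 0.0115). In HaCaT it rested on 15.1 ± 8.17 and 31.2 ± 5.75 normalized counts. ABCC4, an exporter of the ABCC family, had a difference of -0.43 (SE 0.0932, edgeR adjusted p = 0.00509). It fell by 0.47 on the log2 scale in TIGK (edgeR adjusted p = 2.8e-05) and had -0.032 in HaCaT (edgeR adjusted p = 0.718). When each of the 12 libraries was left out in turn, SLC1A5 passed the limit in all 12 fits (-0.53 to -0.43). CHAC1, at -1.91 to -1.14 over the 12 fits with a largest edgeR adjusted p of 0.0284, passed in 3, those without TIGK control replicate 3, HaCaT control replicate 1 or HaCaT H2O2 replicate 3. ABCC4, at -0.48 to -0.35 with a largest edgeR adjusted p of 0.0382, passed in 3, those without TIGK control replicate 1, HaCaT control replicate 3 or HaCaT H2O2 replicate 3.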

How the results depend on the processing

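The rises of GSTP1 and GSTO1 in HaCaT and of MGST2 in TIGK passed the limit in all 23 alternatives run for each. The 4 members that rose in HaCaT became 2 with the replicate block (edgeR adjusted p = 0.0112 for MGST2 and 0.0137 for MGST3), 3 when edgeR was fitted to HaCaT by itself, where MGST3 was lost (adjusted p = 0.0126), 5 with no filter or at a limit of 0.05, where GSTK1 was gained (0.00836 and 0.017), and 2 to 4 when 1 library was left out. The 1 member that rose in TIGK became 3 on the groups compared alone with DESeq2 or edgeR and at a limit of 0.05, 4 without a filter on low counts, and 1 to 3 when 1 library was left out. The block lowered the calls over all genes from 3850 to 3172 in TIGK, from 5664 to 4914 in HaCaT and from 881 to 539 for the difference of responses. For the other alternatives the share of all genes called was not counted. Nothing is therefore read from the changed counts of members or of related genes. Members with a lower response in TIGK went from 0 to 1 without the filter, which was GSTO1. Related genes with a higher response in TIGK went from 0 to 2 without the filter and 1 at 0.05, with 0 to 1 when 1 library was left out. Those with a lower response, 3 in the main fit, ranged from 1 to 4 over all alternatives and from 1 to 3 when 1 library was left out. Related genes that rose in HaCaT went from 11 to 7 with edgeR on the groups compared alone. The GSTP1 share was 73.5%, 73.4%, 83.7% and 84.7% of raw counts and 79.3%, 79.2%, 86.8% and 87.4% with canonical lengths, in TIGK control, TIGK H2O2, HaCaT control and HaCaT H2O2. That of MGST1 was 10.5% and 10.7% or 9.07% and 9.3% in TIGK. Values near 0 changed sign. The difference of responses of GSTM4, at -0.016, was 0.0076 with DESeq2, 0.0064 with RLE and 0.010 with upper quartile factors, 0.035 without the mitochondrial genes, 0.043 without the filter and 0.048 with filterByExpr, and -0.10 to 0.086 when 1 library was left out. When 1 library was left out, that of GSTM3 ranged from -0.20 to 0.23, that of GSTK1 from -0.13 to 0.095, and the TIGK response of GSTO1 was -0.0021 to 0.19. The cause was not tested. The difference of responses could not be fitted on the groups compared alone, and a block within lines gives no value between lines. Counts at or near 0 give no fold for the responses of GSTM2 in either line or of MGST1 in HaCaT.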
